A study of Homo sapiens with 8 samples.

Results

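AP-1 is a family of paired transcription factors in which a JUN protein (JUN, JUNB or JUND) binds DNA together with another JUN protein, a FOS protein (FOS, FOSL1 or FOSL2) or an ATF protein such as ATF3. Several of their genes, like *EGR1*, *MYC* and *IER3*, are immediate early genes, which are transcribed within minutes of a growth factor or stress signal from proteins already in the cell. ERK phosphorylates ETS factors that sit with SRF on many of their promoters, and it also phosphorylates and inactivates the repressors CIC and ERF.

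The members were the 10 genes *FOS*, *FOSL1*, *FOSL2*, *JUN*, *JUNB*, *JUND*, *ATF3*, *EGR1*, *MYC* and *IER3*, chosen by name from 33791 genes with counts. They were measured by RNA-seq in PNT2, a line of normal human prostate epithelium immortalized with a viral large T antigen, which all 4 groups share. Each group had 2 libraries, called replicates A and B: the parental cells (WT), lines with the label *ERF* KD, lines with the label *CIC* KO, and lines with both lost (*CIC-ERF* codeletion). The study's methods describe silencing of *ERF* with either of 2 short hairpins under puromycin selection and disruption of *CIC* with Cas9 and either of 2 guides under blasticidin selection, and the combined lines carried 1 of the hairpins with either guide. Which hairpin or guide a replicate carries, whether a line was 1 clone, and whether replicates came from separate cultures are not given in the sources used here, so that p-values measure the spread between these libraries, which may be technical.

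The libraries held from 19477473 to 25813157 estimated counts. Levels are given as CPM (counts scaled to library size with TMM) for comparisons of 1 gene between libraries and as TPM (which also corrects for transcript length) for comparisons between genes. A gene with at most 3 counts, or from 0.125 to 0.165 CPM depending on the library, was taken as not detected. Fold changes with their standard errors (SE) come from edgeR's quasi-likelihood test fitted to the 8 libraries together over 14653 genes, and a gene was called at a Benjamini-Hochberg adjusted p under 0.05. The letters A and B were taken to pair the libraries, and the value of a second fit with the letter as a block is given where it changes the call of a member or the count of a marker list.

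*ERF* mRNA contradicts the labels of the single-loss groups. It was 55.8 and 55.9 CPM in WT replicates A and B, 81.2 and 77.8 CPM in the *ERF* KD-labelled libraries, 18.8 and 11.7 CPM in the *CIC* KO-labelled libraries, and 11.6 and 10.4 CPM in the *CIC-ERF* codeletion. Lower *ERF* mRNA was thus seen under the label *CIC* KO and not under *ERF* KD. Against WT its log2 fold change in the *CIC* KO-labelled libraries was -1.87 (SE 0.21, adjusted p = 0.25, edgeR). It was called there only with the replicate block (adjusted p = 0.048). In the *ERF* KD-labelled libraries it was 0.51 (SE 0.20, adjusted p = 0.16) and in the *CIC-ERF* codeletion -2.34 (SE 0.22, adjusted p = 0.016, edgeR). *CIC* mRNA, which Cas9 need not lower, was 128.2 and 129.3 CPM in WT and 132.0 and 131.3 CPM in the *CIC* KO-labelled libraries. It was 108.5 and 108.9 CPM in the *ERF* KD-labelled libraries and 90.9 and 66.4 CPM in the *CIC-ERF* codeletion. The log2 fold change in the *ERF* KD-labelled libraries was -0.24 (SE 0.16, adjusted p = 0.38, edgeR), which was not called. The names of the deposited files also carry the letter of the other single-loss group for these 4 libraries, against the sample titles and genotype labels. By the study's methods, *CIC* and *ERF* were measured in the stable lines by qPCR and immunoblot, which concerns the lines and not these libraries. Whether the labels or the files were exchanged was not tested. The labels were kept, and each direction given below for a single-loss group is that of the libraries so labelled. The comparison of the *CIC-ERF* codeletion with WT and the interaction term do not depend on which single-loss label is right.

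The promoters of the called genes *JUNB* and *EGR1*, and that of *FOS*, are shown for the sequences they hold. *FOS* is with *ATF3* in the study's list of genes bound by both CIC and ERF. That list crosses CIC binding in PNT2 with public ERF binding data from VCaP, a prostate cancer line. The study reports no success in pulling down ERF in PNT2 for that comparison. RefSeq windows of 250 bases before the start were found for 7 members, with *FOSL1*, *MYC* and *IER3* having none. All 250 bases were searched. Bases that lie in an annotated exon are left out of the printed sequences only. Capitals mark the SRF CArG box, the cAMP response element core TGACG and the TATA box TATAAA, on either strand.
*EGR1*, chr5:138465229-138465478, plus strand, GRCh38.p14: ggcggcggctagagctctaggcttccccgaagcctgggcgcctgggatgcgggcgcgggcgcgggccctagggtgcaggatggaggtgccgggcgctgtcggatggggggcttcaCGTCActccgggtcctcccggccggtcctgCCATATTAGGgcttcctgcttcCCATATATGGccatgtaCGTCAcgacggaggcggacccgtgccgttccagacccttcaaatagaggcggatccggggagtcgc
*JUNB*, chr19:12791236-12791485, plus strand, GRCh38.p14: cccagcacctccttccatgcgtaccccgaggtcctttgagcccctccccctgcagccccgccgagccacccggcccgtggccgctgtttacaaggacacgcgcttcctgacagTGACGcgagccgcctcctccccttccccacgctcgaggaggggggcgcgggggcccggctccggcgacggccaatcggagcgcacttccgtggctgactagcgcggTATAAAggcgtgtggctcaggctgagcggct
*FOS*, chr14:75278578-75278773, plus strand, GRCh38.p14: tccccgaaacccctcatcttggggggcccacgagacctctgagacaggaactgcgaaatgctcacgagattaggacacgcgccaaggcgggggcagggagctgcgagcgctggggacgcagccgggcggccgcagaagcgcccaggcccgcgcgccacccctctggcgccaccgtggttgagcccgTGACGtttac

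The *EGR1* window held 2 CArG boxes, the element to which SRF binds, from -105 to -96 and from -83 to -74, with -1 the last base before the start. A CArG box was found in 1.17% of the 34788 promoter windows of the same length, and in no other member's window. Sequence farther before the start was not searched, for *FOS* or any other member, and may hold such sites. The *JUNB* window had a TATA box from -31 to -26, where 6.84% of all windows held one at any position. A TATA box was also in an *ATF3* window and in the part of the *FOS* window that lies in an annotated exon. The core TGACG was in the *JUNB* window from -137 to -133. This core was in 21.2% of windows, and the *FOS*, *EGR1*, *JUN*, *FOSL2* and *JUND* windows held it as well. The *JUN* window lies wholly in an annotated exon of *JUN*, and so does its match. The full element TGACGTCA, found in 1.64% of windows, was in the *JUND* window alone among the members. Neither the AP-1 site TGANTCA (6.59% of windows) nor any of the 6 CIC sites TGAATGAA, TGAATGGA, TGAATAAA, TCAATGAA, TCAATGGA and TCAATAAA (5.11% of windows) was found in a member's window. GGAA, the core bound by ETS proteins, was in 92.8% of windows with a median of 3 matches, and there were 4 in *EGR1*, 4 in *JUNB* and 1 in *FOS*. A match is a description of these letters, and binding was not measured here.

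By TPM in WT, *FOSL1* was the most abundant member and *FOS* the least. The order was *FOSL1* (129 ± 38.5 TPM, SD, n = 2), *MYC* (110.1 ± 14.9), *JUND* (78.9 ± 2.35), *JUNB* (46.0 ± 5.25), *JUN* (45.2 ± 3.17), *FOSL2* (37.2 ± 1.68), *EGR1* (22.0 ± 2.41), *ATF3* (13.0 ± 5.21) and *FOS* (2.51 ± 0.714). The WT libraries of *FOSL1* and *MYC* overlapped, as did those of *JUNB* and *JUN*, while the other neighbours in the order did not. *IER3* had no count on its transcripts of the primary chromosomes and is described separately.

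**Figure D1:**
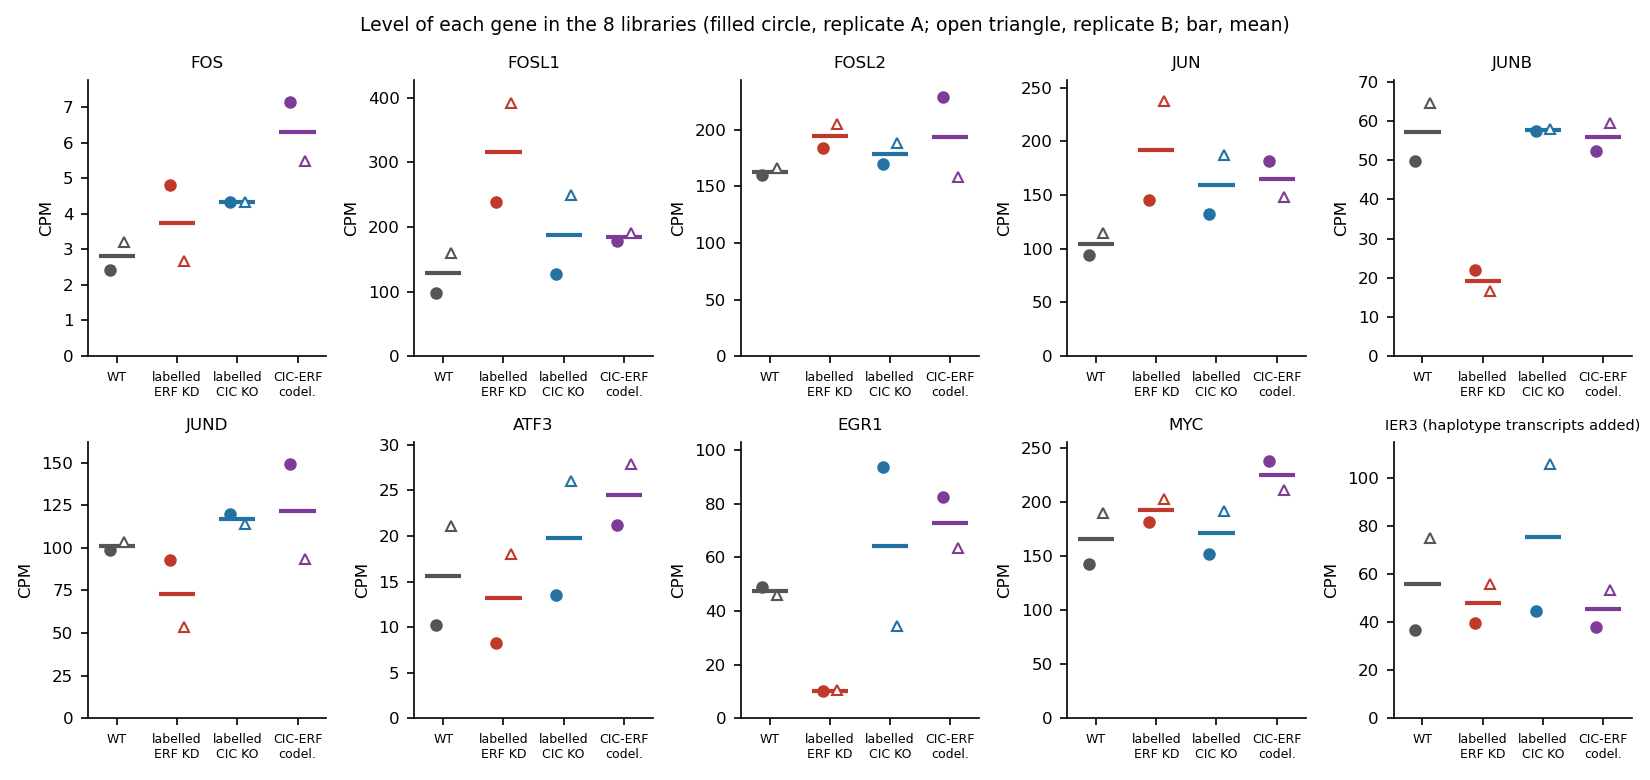
Level of each of the 10 genes in CPM (vertical axes, starting at 0) in the 8 libraries of the 4 groups. Filled circles are replicate A, open triangles replicate B and bars the mean. EGR1 and JUNB are lowest in the 2 ERF KD-labelled libraries, at 10.3 and 10.4 CPM and at 21.9 and 16.5 CPM, and FOSL1 is higher in replicate B than in A in each group.

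Against WT, 2 of the 9 members tested were called in the *ERF* KD-labelled libraries, *JUNB* and *EGR1*, both lower, where 10.1% of all genes tested were called. With the replicate block 4 members were called, the same pair and *FOSL1* and *JUN*, both higher, and 18.2% of all genes. No member was called in the *CIC* KO-labelled libraries (0% of all genes called) or in the *CIC-ERF* codeletion (0.0682% of all genes). The median log2 fold change of the 9 members was 0.21 in the *ERF* KD-labelled libraries, 0.34 in the *CIC* KO-labelled libraries and 0.52 in the *CIC-ERF* codeletion, against medians over all genes tested of 0.0058, 0.012 and 0.0018. The fitted change was above 0 for 5, 9 and 8 of the 9 members in these comparisons, and for 50.6%, 52.2% and 50.2% of all genes. In the *CIC* KO-labelled libraries *JUNB* (0.01) and *MYC* (0.05) were close to 0. There the signs of *FOSL1*, *JUNB*, *ATF3*, *EGR1* and *MYC* turned when certain libraries were left out. The 3 comparisons share the WT libraries, so their values are not independent.

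**Figure D2:**
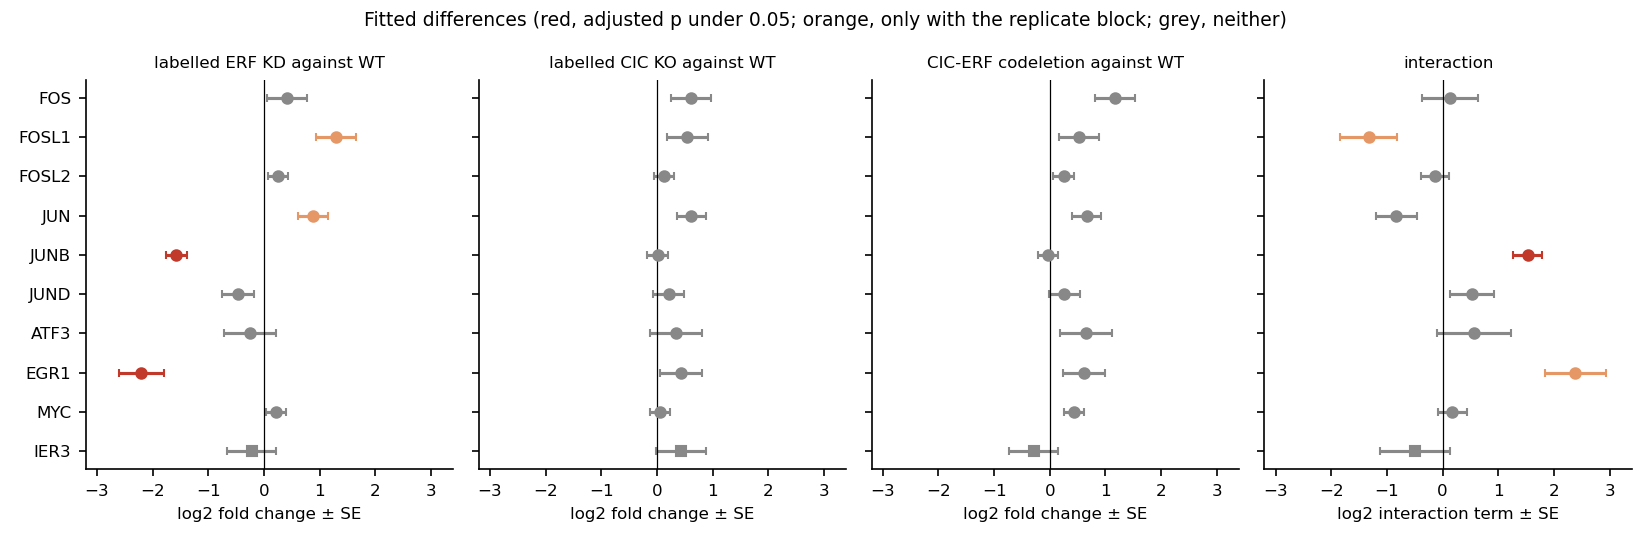
Fitted log2 fold change of each gene against WT in 3 groups, and the log2 interaction term (horizontal axes), with bars of 1 SE; squares mark IER3 with alternate-haplotype transcripts added. Red points have an adjusted p under 0.05 and orange points reach it only with the replicate block. JUNB and EGR1 are red in the ERF KD-labelled libraries at -1.58 and -2.20, and JUNB is red in the interaction at 1.53.

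Among the *JUN* genes, *JUNB*, whose protein can replace JUN in AP-1 pairs and often activates less strongly, stood at 49.9 and 64.7 CPM in WT and at 21.9 and 16.5 CPM in the *ERF* KD-labelled libraries. It was 57.4 and 58.1 CPM in the *CIC* KO-labelled libraries and 52.2 and 59.5 CPM in the *CIC-ERF* codeletion. Both *ERF* KD-labelled libraries lay below the other 6, which overlapped each other. *JUNB* fell by 1.58 on the log2 scale in the *ERF* KD-labelled libraries (SE 0.19, adjusted p = 0.0016, edgeR), and its adjusted p was from 0.0034 to 0.012 with any library left out. Its log2 fold change was 0.01 (SE 0.18, adjusted p = 1.0) in the *CIC* KO-labelled libraries and -0.04 (SE 0.18, adjusted p = 0.95) in the *CIC-ERF* codeletion.

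*JUNB* (chr19:12791496-12793315, plus strand, GRCh38) shares 259 exonic bases with *HOOK2* on the opposite strand, and whether reads kept their strand is not given in the sources used here. The *HOOK2* transcript that holds these bases carried from 0 to 9.49 estimated counts in a library, and *JUNB* from 332 to 1269. *HOOK2* as a whole was 84.7 and 70.9 CPM in WT and 56.4 and 44.3 CPM in the *ERF* KD-labelled libraries (log2 fold change -0.63, SE 0.17, adjusted p = 0.0501, edgeR, and 0.0065 with the replicate block).

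*JUN*, the founding member of the family (chr1:58780788-58784327, minus strand, GRCh38), was 94.0 and 114.3 CPM in WT. It was 145.5 and 237.6 CPM in the *ERF* KD-labelled libraries, 132.5 and 186.8 CPM in the *CIC* KO-labelled libraries and 181.7 and 148.1 CPM in the *CIC-ERF* codeletion. Each of these 6 libraries lay above both WT libraries, although the replicates of a group differed by up to 1.63 times. The log2 fold changes against WT were 0.88 (SE 0.26, adjusted p = 0.074), 0.62 (SE 0.26, adjusted p = 1.0) and 0.66 (SE 0.26, adjusted p = 0.34, edgeR). With the replicate block the first was 0.86 (SE 0.21) and passed at an adjusted p of 0.024, and it also passed without replicate A of the *ERF* KD-labelled libraries (adjusted p = 0.029), the lowest of a range up to 0.34 with a library left out. DESeq2 gave *JUN* an adjusted p of 0.0082 and limma on log2(TPM + 1) one of 0.084.

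*JUND*, which is expressed in resting cells and is less dependent on signals than the other *JUN* genes, was 98.6 and 103.7 CPM in WT and 92.7 and 53.5 CPM in the *ERF* KD-labelled libraries. It was 119.9 and 114.1 CPM in the *CIC* KO-labelled libraries and 149.4 and 93.3 CPM in the *CIC-ERF* codeletion. The log2 fold changes against WT were -0.47 (SE 0.28), 0.21 (SE 0.28) and 0.26 (SE 0.28), none of them called, and the replicates of 2 groups differed by 1.73 and 1.60 times.

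Within the *JUN* family, shares of the summed TPM were computed for each library and not tested. *JUN* made up 25.9% and 27.2% of the family in the WT libraries and 41.8% and 65.5% in the *ERF* KD-labelled libraries. *JUNB* made up 25.5% and 28.5% in WT and 11.6% and 8.43% in the *ERF* KD-labelled libraries, and from 17.9% to 26.2% in the other 4 libraries. The ratio of *JUN* to *JUNB* was thus 1.02 and 0.955 in WT replicates A and B, 3.59 and 7.77 in the *ERF* KD-labelled libraries, 1.25 and 1.71 in the *CIC* KO-labelled libraries, and 1.87 and 1.34 in the *CIC-ERF* codeletion. The ratio was above both WT values in each of the 6 other libraries. The summed TPM of the family was from 166 to 174 in WT, from 152 to 153 in the *ERF* KD-labelled libraries, from 201 to 214 in the *CIC* KO-labelled libraries and from 171 to 238 in the *CIC-ERF* codeletion.

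**Figure D3:**
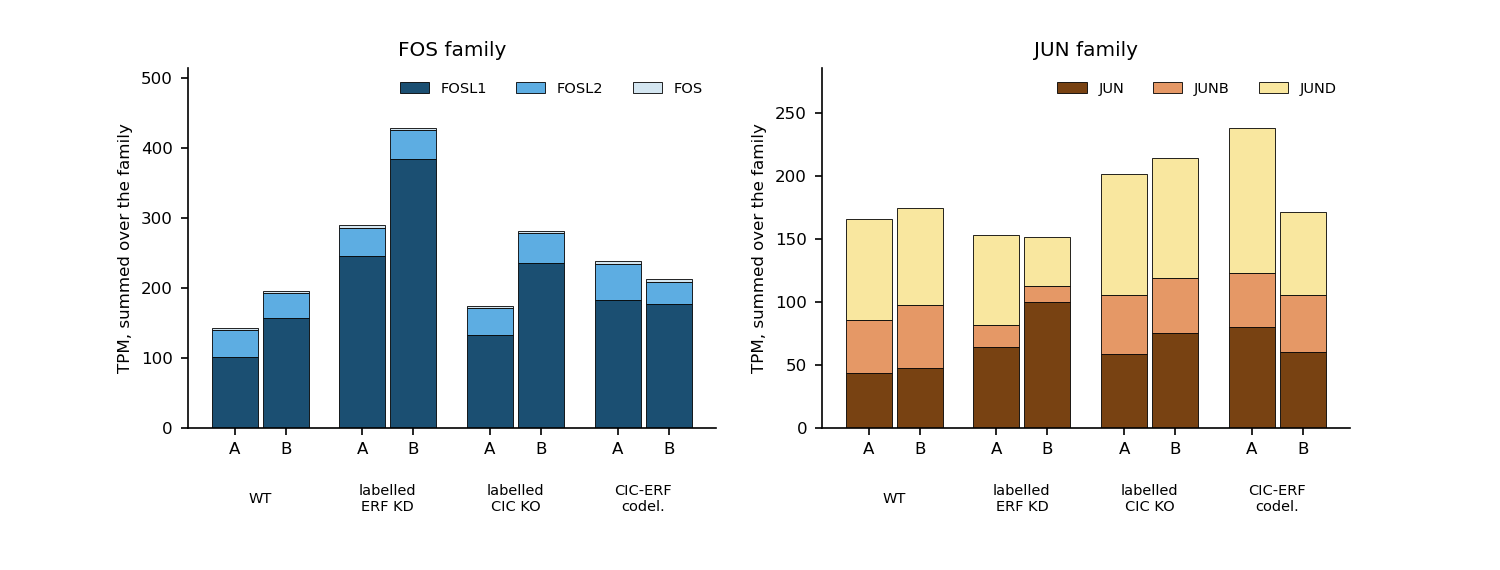
TPM of the FOS family (left) and the JUN family (right) in each library, stacked by gene, with libraries A and B of each group side by side. FOSL1 makes up from 71.5% to 89.7% of the FOS family in every library, and the JUNB part of the JUN family is smallest in the 2 ERF KD-labelled libraries, at 11.6% and 8.43%.

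Among the *FOS* genes, *FOSL1*, which encodes FRA-1, a FOS protein whose level follows sustained ERK activity (gene at chr11:65892049-65900573, minus strand, GRCh38), was 97.9 and 159.5 CPM in WT and 238.4 and 392.5 CPM in the *ERF* KD-labelled libraries. It was 127.2 and 249.0 CPM in the *CIC* KO-labelled libraries and 178.5 and 190.1 CPM in the *CIC-ERF* codeletion. Replicate B was above replicate A in 4 of 4 groups, by up to 1.96 times. The log2 fold change in the *ERF* KD-labelled libraries was 1.29 (SE 0.37, adjusted p = 0.063) and, with the replicate block, 1.29 (SE 0.19, adjusted p = 0.0022, edgeR). It passed in DESeq2 (adjusted p = 0.0013) and, closely, in limma on log2(TPM + 1) (adjusted p = 0.0496), and with a library left out the adjusted p ran from 0.033 to 0.31. The log2 fold change was 0.55 (SE 0.36, adjusted p = 1.0) in the *CIC* KO-labelled libraries and 0.52 (SE 0.36, adjusted p = 0.57) in the *CIC-ERF* codeletion, and neither was called with the block (adjusted p = 0.57 and 0.14). One transcript, FOSL1-201, carried from 76.6% to 82.0% of the gene's counts in a library.

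*FOSL2*, which encodes the related FRA-2, varied least between groups, with group means of 163, 194, 179 and 194 CPM in WT, the *ERF* KD-labelled libraries, the *CIC* KO-labelled libraries and the *CIC-ERF* codeletion. Its 8 libraries lay between 158.2 and 229.0 CPM, the lowest and highest both from the *CIC-ERF* codeletion. The log2 fold changes against WT were 0.25, 0.13 and 0.25 with an SE of 0.18 each. The ratio of *FOSL1* to *FOSL2* in TPM was 2.64 and 4.33 in WT and 5.96 and 9.05 in the *ERF* KD-labelled libraries.

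*FOS* itself (chr14:75278774-75282230, plus strand, GRCh38), induced within minutes of serum or growth factor addition and lost again soon after, had the fewest counts of the members tested, from 51 to 169 in a library. Its level was 2.42 and 3.21 CPM in WT, 4.80 and 2.68 CPM in the *ERF* KD-labelled libraries, 4.32 and 4.33 CPM in the *CIC* KO-labelled libraries and 7.15 and 5.47 CPM in the *CIC-ERF* codeletion. Both *CIC-ERF* codeletion libraries lay above the other 6. The log2 fold change in the *CIC-ERF* codeletion was 1.17 (SE 0.36) with an unadjusted p of 0.011 and an adjusted p of 0.23 (edgeR, 0.12 with the block), so it was not called. *FOS* made up from 0.430% to 2.24% of the *FOS* family in TPM.

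*ATF3*, a stress-induced ATF protein that can pair with JUN proteins and repress its own gene, was 10.3 and 21.1 CPM in WT, 8.26 and 18.0 CPM in the *ERF* KD-labelled libraries, 13.5 and 26.1 CPM in the *CIC* KO-labelled libraries and 21.2 and 27.9 CPM in the *CIC-ERF* codeletion. Replicate B was above A in 4 of 4 groups. In 3 of them it was from 1.93 to 2.18 times higher, more than the 1.86 times between the lowest and the highest group in the fit, and the log2 fold changes against WT were -0.25 (SE 0.47), 0.34 (SE 0.47) and 0.65 (SE 0.47), none of them called. The transcript ATF3-202 carried from 73.9% to 94.0% of the counts.

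*EGR1*, a zinc finger factor whose promoter is a standard SRF and ETS read-out of ERK signalling (gene at chr5:138465490-138469315, plus strand, GRCh38), showed the widest range of group means among the members, 2.82 on the log2 scale. It was 49.0 and 46.1 CPM in WT and 10.3 and 10.4 CPM in the *ERF* KD-labelled libraries. It was 93.8 and 34.5 CPM in the *CIC* KO-labelled libraries and 82.3 and 63.3 CPM in the *CIC-ERF* codeletion. The *ERF* KD-labelled libraries agreed closely and lay below the other 6, while the *CIC* KO-labelled libraries differed by 2.72 times and lay on either side of WT. *EGR1* fell by 2.20 on the log2 scale in the *ERF* KD-labelled libraries (SE 0.41, adjusted p = 0.012, edgeR), and the adjusted p was 0.062 without their replicate A and 0.064 without their replicate B. The log2 fold changes in the *CIC* KO-labelled libraries (0.43, SE 0.38, adjusted p = 1.0) and in the *CIC-ERF* codeletion (0.62, SE 0.38, adjusted p = 0.52) were not called.

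In bulk RNA, fewer cells with a transcript and less of it in each cell cannot be told apart, which applies to *JUNB* and *EGR1*. Epithelial markers were lower in the same libraries: 6 of the 7 tested, from a list of 8, were called lower in the *ERF* KD-labelled libraries (7 of 7 with the replicate block), *CDH1* among them with 361.8 and 385.0 CPM in WT and 17.6 and 17.6 CPM there. The summed level of the list was from 1645 to 2107 CPM in the *ERF* KD-labelled libraries and from 3794 to 5210 CPM in the other 6. *TP63*, the marker that was not tested, was at most 0.577 CPM in any library. Of 6 fibroblast markers 4 were tested and 1, *COL3A1*, rose in the *ERF* KD-labelled libraries, where it was 9.89 and 1.79 CPM against 0.427 and 0.561 CPM in WT, and the summed fibroblast list was from 41.0 to 113.6 CPM there and from 30.9 to 48.8 CPM in WT. With the replicate block *PDGFRB* was also called, at a log2 fold change above 0 (adjusted p = 0.018, and 0.27 without the block, edgeR), so that 2 of the 4 were higher. The part of these marker changes in the *JUNB* and *EGR1* results was not tested. Of the luminal prostate markers, *KLK2* was at most 0.248 CPM in any library and *KLK3* had no count in any, so these secretory products of the prostate epithelium were near or under the limit of detection.

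*MYC*, a growth-promoting factor and an early target of mitogen signals, was 142.4 and 189.3 CPM in WT, 181.7 and 202.7 CPM in the *ERF* KD-labelled libraries, 151.9 and 191.1 CPM in the *CIC* KO-labelled libraries and 238.0 and 211.3 CPM in the *CIC-ERF* codeletion. Both *CIC-ERF* codeletion libraries lay above the other 6. The log2 fold change of the *CIC-ERF* codeletion against WT was 0.44 (SE 0.18, unadjusted p = 0.041, adjusted p = 0.35, edgeR), and those of the *ERF* KD-labelled and *CIC* KO-labelled libraries were 0.21 (SE 0.18) and 0.05 (SE 0.18). The transcript MYC-202 carried from 69.5% to 77.8% of the counts and MYC-205 from 19.3% to 28.0%.

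*IER3*, an early response gene whose product acts in survival signalling and binds ERK, lies in the MHC region (chr6:30743199-30744554, minus strand, GRCh38), of which the annotation holds several alternate haplotypes. Its 2 transcripts on the primary chromosome had 0 estimated counts in each of the 8 libraries, and it did not pass the filter. The counts lay on 10 copies of its transcripts on alternate haplotypes, which the annotation gives the same gene name, and 4 of these copies shared the largest count equally in each library. With these copies added, which was chosen after the data were seen, *IER3* had 778 and 1487 counts in WT, 838 and 1136 in the *ERF* KD-labelled libraries, 969 and 2225 in the *CIC* KO-labelled libraries and 903 and 959 in the *CIC-ERF* codeletion.

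On this count *IER3* was 36.6 and 75.1 CPM in WT, 39.9 and 55.9 CPM in the *ERF* KD-labelled libraries, 44.6 and 106.0 CPM in the *CIC* KO-labelled libraries and 37.9 and 53.6 CPM in the *CIC-ERF* codeletion. Replicate B was above A in 4 of 4 groups, and the groups overlapped. The log2 fold changes against WT were -0.22 (SE 0.45, adjusted p = 0.81), 0.43 (SE 0.44, adjusted p = 1.0) and -0.29 (SE 0.45, adjusted p = 0.81, edgeR). Its mean of 72.4 ± 31.3 TPM (SD, n = 2) would place it beside *JUND* in the order of WT levels.

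For the 9 members tested, the groups did not overlap for 6 in the *ERF* KD-labelled libraries (*FOSL1*, *FOSL2* and *JUN* above WT, *JUNB*, *JUND* and *EGR1* below), where 56.3% of all genes did not overlap. They did not overlap for 4 in the *CIC* KO-labelled libraries (*FOS*, *FOSL2*, *JUN* and *JUND*, all above WT), against 32.2% of all genes, and for 6 in the *CIC-ERF* codeletion (*FOS*, *FOSL1*, *JUN*, *ATF3*, *EGR1* and *MYC*, all above WT), against 49.5% of all genes. With an unadjusted p under 0.05 there were 1 of 9 members in the *CIC* KO-labelled libraries (*JUN*, 4.01% of all genes) and 3 of 9 in the *CIC-ERF* codeletion (*FOS*, *JUN* and *MYC*, 13.3% of all genes). DESeq2 and limma called no member in either comparison.

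The *CIC-ERF* codeletion was also compared with each single-loss group, which asks what the combined loss adds. Against the *CIC* KO-labelled libraries no member was called (0% of all genes), none had an unadjusted p under 0.05 (8.3% of all genes), and DESeq2 and limma called none. The log2 fold changes of the 9 members ran from -0.05 for *JUNB* (SE 0.18) to 0.55 for *FOS* (SE 0.35). Against the *ERF* KD-labelled libraries, *JUNB* was higher by 1.54 (SE 0.19, adjusted p = 0.0018) and *EGR1* by 2.82 on the log2 scale (SE 0.41, adjusted p = 0.0042, edgeR), 2 of 9 members where 11.7% of all genes were called. With the replicate block 5 members were called (20.6% of all genes): the same pair, *FOSL1* at -0.71 (SE 0.19, adjusted p = 0.029), *JUND* at 0.74 (SE 0.21, adjusted p = 0.038) and *ATF3* at 0.998 (SE 0.20, adjusted p = 0.0097). These last 3 had adjusted p-values of 0.22, 0.14 and 0.28 without the block.

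The interaction term asks whether the *CIC-ERF* codeletion departs from the sum of the 2 single-loss changes on the log2 scale. It was called for *JUNB*, at 1.53 (SE 0.26, adjusted p = 0.017, edgeR), 1 of 9 members where 4.15% of all genes were called. The *JUNB* term had adjusted p-values of 0.061 without WT replicate B, 0.059 without replicate B of the *CIC* KO-labelled libraries and 0.060 without *CIC-ERF* codeletion replicate B. *EGR1* had the largest term of the 9, 2.38 (SE 0.55, adjusted p = 0.054), which passed with the replicate block (2.46, SE 0.44, adjusted p = 0.0097) and without replicate A or B of the *CIC* KO-labelled libraries (adjusted p = 0.0024 and 0.016), with the others left out giving up to 0.18. DESeq2 gave *EGR1*'s term an adjusted p of 1.4e-04. *FOSL1* was at -1.32 (SE 0.51, adjusted p = 0.23) and passed with the block (-1.23, SE 0.26, adjusted p = 0.022), with which 3 members were called (9.55% of all genes), and with no filter on low counts (adjusted p = 2.4e-05). For *JUNB* and *EGR1* the *CIC-ERF* codeletion lay near or above WT while the *ERF* KD-labelled libraries lay below it, and the terms measure that difference.

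Other genes of the pathway were taken from lists of related genes. Of 10 other AP-1 bZIP genes (*FOSB*, the *BATF*, *JDP2* and *ATF2* genes and the small MAF genes) 9 were tested, and 1 was called in the *ERF* KD-labelled libraries. *BATF*, which pairs with JUN proteins mostly in lymphocytes, was 3.75 and 3.82 CPM in WT and 0.913 and 0.397 CPM there (log2 fold change -2.52, SE 0.40, adjusted p = 0.0066, edgeR). The list's median log2 fold change was 0.31.

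Of 24 other immediate early genes 23 were tested, and 2 rose and 2 fell in the *ERF* KD-labelled libraries, with a list median of -0.04. *CTGF*, a matricellular protein and a standard target of YAP and SRF, was 36.3 and 42.6 CPM in WT, 158.4 and 208.6 CPM in those libraries and 19.3 and 29.7 CPM in the *CIC-ERF* codeletion (log2 fold change 2.22, SE 0.23, adjusted p = 7.5e-04 in the *ERF* KD-labelled libraries). *GEM*, a small GTPase, was 4.89 and 9.23 CPM in WT and 20.1 and 26.7 CPM there (1.73, SE 0.35, adjusted p = 0.017). The nuclear receptor *NR4A1*, an early gene like *EGR1*, fell by 1.08 (SE 0.27, adjusted p = 0.040), and *BTG2*, an antiproliferative early gene, fell by 0.999 (SE 0.25, adjusted p = 0.042, edgeR). The early genes called in these libraries thus went in both directions.

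Of the 16 reported AP-1 targets 15 were tested, and 1 rose and 2 fell in the *ERF* KD-labelled libraries (list median 0.19). *MMP9*, a secreted protease, was 2.23 and 7.34 CPM in WT and 0.576 and 0.348 CPM there (log2 fold change -3.35, SE 0.74, adjusted p = 0.025). *VEGFA*, the vascular growth factor, was 139.8 and 137.5 CPM in WT and 69.1 and 66.7 CPM there (-1.03, SE 0.14, adjusted p = 0.0033), and *HMOX1*, heme oxygenase, was 36.9 and 49.6 CPM in WT and 74.2 and 107.0 CPM there (1.07, SE 0.26, adjusted p = 0.038, edgeR).

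None of the 6 genes for *SRF* and its cofactors was called by edgeR in the *ERF* KD-labelled libraries (list median 0.05). An unadjusted p under 0.05 was found for 2 of them, the replicate block called 2, 1 in each direction, DESeq2 1 and limma 0. Of 12 stress and heat shock genes 11 were tested and 1, *DDIT4*, an inhibitor of mTOR signalling, was called, falling by 1.13 (SE 0.30, adjusted p = 0.048, edgeR), and 3 were called with the replicate block. Over these lists and 19 genes of the ERK and JNK cascade, 6 lists in all, 10 of 83 tested genes were called in the *ERF* KD-labelled libraries (10.1% of all genes), and 17 with the replicate block (18.2% of all genes), shares of the 83 near those over all genes. None was called in the *CIC* KO-labelled libraries by edgeR, with or without the block, by DESeq2 or by limma, with an unadjusted p under 0.05 for 2 of the 83 (4.01% of all genes). In the *CIC-ERF* codeletion none was called by edgeR, 4 with the block, 5 by DESeq2 and 0 by limma, with an unadjusted p under 0.05 for 18 (13.3% of all genes). Over all 14653 genes tested, 10 were called there by edgeR and 365 with the block, and the DESeq2 count is given in the closing section.

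**Figure D4:**
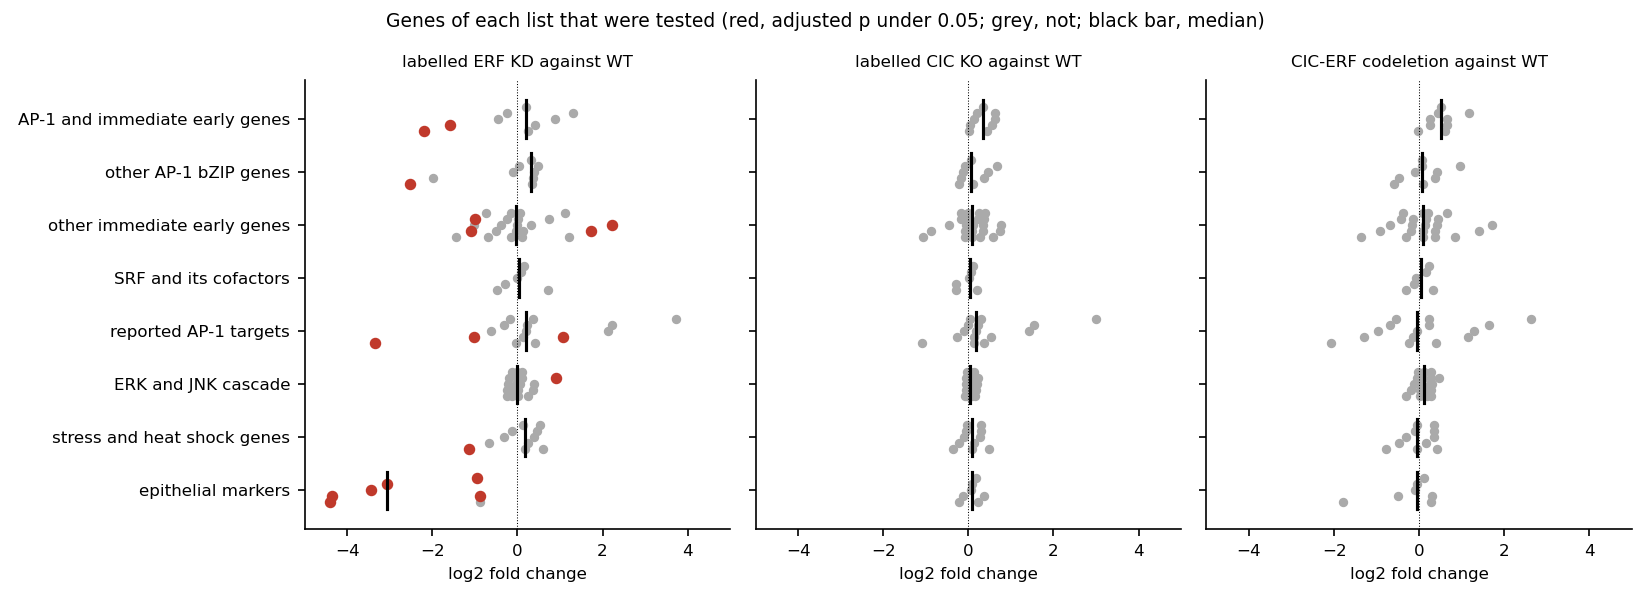
Log2 fold change against WT (horizontal axes) of each tested gene of 8 lists in 3 groups. Red points have an adjusted p under 0.05, grey points do not, and black bars are list medians. The called genes all lie in the ERF KD-labelled libraries, where 6 epithelial markers are lower and the early genes and AP-1 targets that were called lie on both sides of 0.

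For the 3 members with the widest range of group means, the genes with the most similar levels were sought among 13823 protein-coding genes, by the root mean square difference in log2 CPM over the 8 libraries after each gene was centred on its own mean. Closest to *EGR1* were *IL22RA1*, an interleukin receptor chain, at 0.214, *GRB7*, an adaptor of receptor tyrosine kinases, at 0.272, and *MLXIPL*, a glucose-responsive transcription factor, at 0.292, where the median over all genes was 1.18. *GRB7* had means of 16.8 CPM in WT, 3.55 CPM in the *ERF* KD-labelled libraries, 18.0 CPM in the *CIC* KO-labelled libraries and 24.5 CPM in the *CIC-ERF* codeletion. It was lowest in the *ERF* KD-labelled libraries and highest in the *CIC-ERF* codeletion, as its choice by likeness to *EGR1* implies. In the *ERF* KD-labelled libraries *MLXIPL* was 0.192 and 0.199 CPM, just above the limit of detection, and *IL22RA1* 0.672 and 0.546 CPM. Their likeness to *EGR1* there rests on low counts.

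Closest to *JUNB* were *SPINT2*, a protease inhibitor of epithelia, at 0.102, *STARD10*, a lipid transfer protein, at 0.114, and *IGSF3*, a membrane protein, at 0.114 (median over all genes 0.747). *STARD10* had means of 69.9, 22.1, 70.9 and 73.3 CPM in WT, the *ERF* KD-labelled libraries, the *CIC* KO-labelled libraries and the *CIC-ERF* codeletion. Closest to *FOSL1* were the peptide hormone gene *ADM* at 0.151, *DUSP6*, a phosphatase that acts on ERK, at 0.151, and *TFPI2*, a protease inhibitor, at 0.168 (median over all genes 0.633). *ADM* had a log2 fold change of 1.29 in the *ERF* KD-labelled libraries against WT (SE 0.33, adjusted p = 0.044, edgeR) and was called. *DUSP6* had means of 7.29, 15.9, 10.4 and 10.1 CPM in the same order, with a log2 fold change of 1.13 in the *ERF* KD-labelled libraries (SE 0.39, adjusted p = 0.11, edgeR), which was not called. All these genes were picked for likeness over the same 8 libraries. Their shared patterns, and differences from WT like that of the member, follow from the choice and are no separate evidence. The likenesses rest on 8 libraries in 4 groups and describe the levels only.

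**Figure D5:**
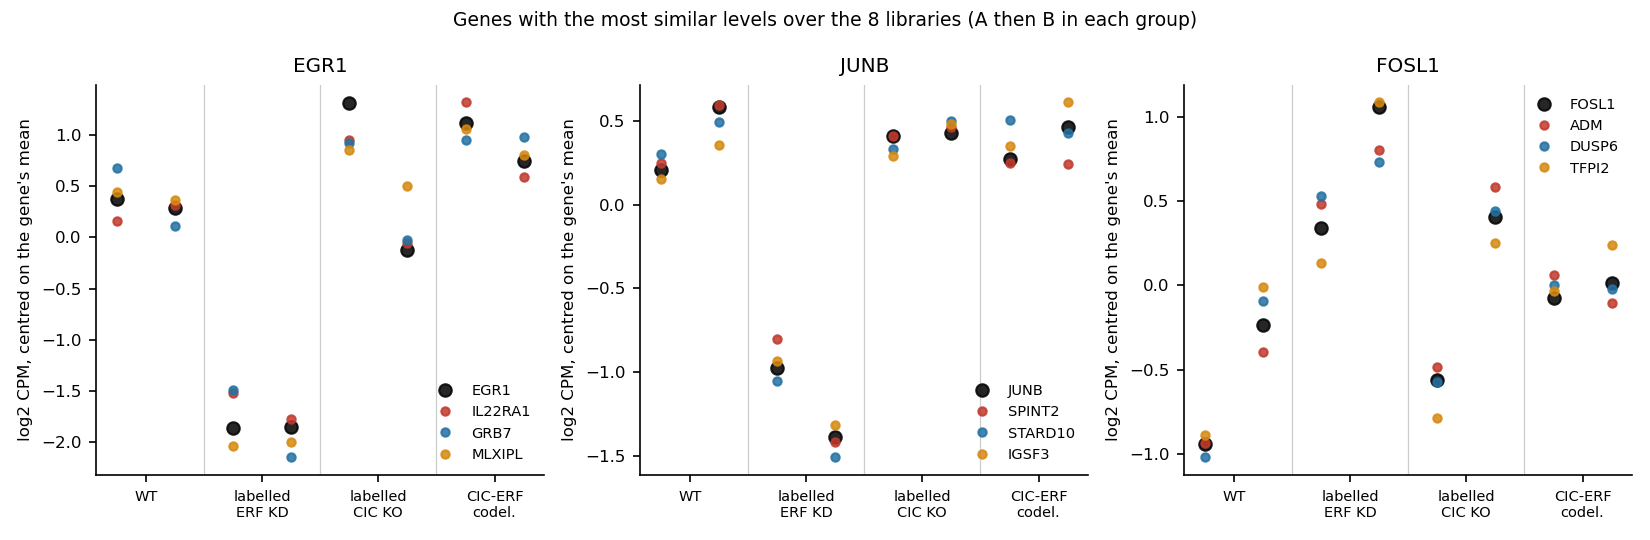
Log2 CPM centred on each gene's own mean (vertical axes) in the 8 libraries, replicate A then B in each group, for EGR1, JUNB and FOSL1 (black) and the 3 genes closest to each (colours). The genes closest to EGR1 and JUNB are lowest in both ERF KD-labelled libraries, and those closest to FOSL1 are higher in replicate B than in A in WT and in both single-loss groups. The genes were picked for likeness over these libraries, so the shared patterns follow from the choice.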

How the data were processed

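RNA-seq libraries of PNT2 were made by a company. The authors deposited, per transcript, estimated counts (not normalized) and TPM (scaled by effective length and library) in kallisto's format. The study's methods name RSEM, the labels the build hg19, and the kallisto version, annotation and strandedness are not given in the sources used here. Of 180253 transcripts, 153245 (85.0%) matched GENCODE release 29 (GRCh38), and their counts, from 93.2% to 93.3% of a library, were summed over 33791 genes and rounded.

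Counts were scaled by TMM and tested with edgeR 4.0.16 (R 4.3.3) after filterByExpr, with 4 groups in 1 fit over 14653 genes. In counts simulated for the *ERF* KD-labelled libraries against WT, 53% of genes changed by 1 on the log2 scale and 83.5% of those changed by 2 were called. In all 4 groups replicates A and B differed beyond sampling noise (chi-square over its degrees of freedom between 22.3 and 44.6). The difference between replicates A and B correlated across genes between each of the 6 pairs of groups (0.136 to 0.335), and same-lettered libraries were treated as pairs. The biological coefficient of variation was 0.197, and 0.142 with the block.

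Members and lists were chosen with earlier results of these data known. Named were the 10 members, *ERF* and *CIC*, up to 3 genes per direction from each list with an adjusted p under 0.05 against WT, and for the 3 members of widest range the 3 closest genes. Some genes that this rule or the lists hold are not reported here. *HOOK2* was added for its overlap with *JUNB*. Alternatives were DESeq2 1.42.0, no filter, the replicate block, limma 3.58.1 on log2(TPM + 1) and log2(TPM + 0.1), and each library left out. Adding 7047 alternate-haplotype transcripts of 397 genes (from 0.777% to 0.948% of counts) was chosen after the data were seen.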

Additional observations from a re-analysis of the deposited data

Results flagged for a closer look

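The interaction term was called for *JUNB*, at 1.53 on the log2 scale (adjusted p = 0.017, edgeR), so that its change in the *CIC-ERF* codeletion differed from the sum of its changes in the single-loss groups. The same term was called for 4 of the other genes named from the lists: *CDH1* at 4.14 (adjusted p = 9.8e-05), *TMPRSS2*, a luminal prostate marker, at 3.42 (adjusted p = 0.029), *CTGF* at -2.74 (adjusted p = 0.0031) and *HMOX1* at -2.27 (adjusted p = 0.015, edgeR). The *ERF* KD-labelled libraries held the lowest levels of *JUNB*, *CDH1* and *TMPRSS2* and the highest of *CTGF* and *HMOX1*. The 4 list genes were named because they differed from WT in those libraries, and the interaction term contains that difference. Their calls are thus partly set by the choice. Over all genes tested, 4.15% were called in the interaction.

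*IER3* had at least 778 estimated counts in each library on transcripts of alternate haplotypes, which the sums over the primary chromosomes leave out, and 0 counts on its 2 primary transcripts.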

How the results depend on the processing

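With 2 libraries a group, calls of single members rest on few values. *FOS* had the fewest counts of the members tested (51 to 169), and the SE against WT in the *ERF* KD-labelled libraries was largest for *ATF3* (0.47). In the *ERF* KD-labelled libraries against WT, 4 members were called with DESeq2, 4 with no filter and 4 with the replicate block, in place of 2, and from 1 to 3 with a library left out. No member was called in the *CIC* KO-labelled libraries under any of these settings, and 2 (*JUN* and *EGR1*) in the *CIC-ERF* codeletion against WT with no filter. Against the *ERF* KD-labelled libraries, 5 members were called in the *CIC-ERF* codeletion with no filter and 5 with the block, and in the interaction 2 with DESeq2, 4 with no filter, 3 with the block and from 0 to 2 with a library left out. With the block the share of all genes called rose as well. It went from 10.1% to 18.2% in the *ERF* KD-labelled libraries against WT. It went from 11.7% to 20.6% in the *CIC-ERF* codeletion against those libraries, and from 4.15% to 9.55% in the interaction. The fit with no filter tested each gene with a count in any library, not the 14653, and its share over all genes is not given here. It called more genes over the whole table than the main fit in each comparison, as given in the next paragraph. Its member counts can thus not be set against the shares of the main fit. No DESeq2 share over all genes is given here for the first comparison. The causes were not tested. *JUNB* and *EGR1* kept their direction in each alternative run in the *ERF* KD-labelled libraries against WT. Where a library was left out, the lone sample of its group was assumed to vary like the other groups.

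Genes called over the whole table numbered 1477 in the *ERF* KD-labelled libraries against WT (2577 with no filter, 2671 with the block, from 620 to 1477 with a library left out) and 0 in the *CIC* KO-labelled libraries (26 with DESeq2, 123 with no filter, 1 with the block, from 0 to 1 with a library left out). In the *CIC-ERF* codeletion they numbered 10 against WT (444 with DESeq2, 768 with no filter, 365 with the block, 1 with limma on log2(TPM + 1), from 0 to 8 with a library left out), 0 against the *CIC* KO-labelled libraries (146, 426 and 49 with DESeq2, no filter and the block) and 1709 against the *ERF* KD-labelled libraries (2798 with no filter, 3014 with the block, 1113 with limma on log2(TPM + 1), from 702 to 1638 with a library left out). In the interaction they numbered 608 (1112, 1645 and 1400 with DESeq2, no filter and the block, 312 and 314 by limma with pseudocounts of 1 and 0.1 TPM, from 272 to 554 with a library left out).

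Of 756 member values under the alternatives, 678 kept their direction and their side of the threshold, 28 newly passed it, 5 no longer did and 45 turned in sign, 0 of these from a called value. With limma and pseudocounts of 1 and 0.1 TPM, *JUNB* and *MYC* in the *CIC* KO-labelled libraries against WT were at -0.0156 and -0.0159 and at -0.00296 and -0.00296, and in the *CIC-ERF* codeletion against those libraries *FOSL1* was at 0.0222 and 0.0226 (0.0625 with the replicate block), *FOSL2* at -0.0195 and -0.0209, and *JUND* at -0.125 and -0.127. The other sign changes came with a library left out, where the log2 values ran as follows. In the *ERF* KD-labelled libraries against WT, *FOS* ran from -0.0659 to 0.772 and *ATF3* from -0.918 to 0.359. In the *CIC* KO-labelled libraries against WT, *FOSL1* ran from -0.0182 to 0.952, *JUNB* from -0.167 to 0.212, *ATF3* from -0.211 to 0.950, *EGR1* from -0.461 to 0.980 and *MYC* from -0.145 to 0.270. In the *CIC-ERF* codeletion against WT, *FOSL2* ran from -0.0485 to 0.491, *JUNB* from -0.212 to 0.168 and *JUND* from -0.120 to 0.566. Against the *CIC* KO-labelled libraries, *FOSL1* ran from -0.435 to 0.539, *FOSL2* from -0.177 to 0.356, *JUN* from -0.181 to 0.320, *JUNB* from -0.142 to 0.0465, *JUND* from -0.324 to 0.356, *ATF3* from -0.0907 to 0.861 and *EGR1* from -0.360 to 1.08. Against the *ERF* KD-labelled libraries, *FOSL2* ran from -0.292 to 0.237 and *JUN* from -0.527 to 0.181. In the interaction, *FOS* ran from -0.223 to 0.615, *FOSL2* from -0.421 to 0.102, *ATF3* from -0.0498 to 1.23 and *MYC* from -0.0438 to 0.376. The haplotype transcripts changed no member's call.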
